A study of Sus scrofa domesticus with 2 samples.

Results

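The genes described here are a list of DNA replication and S phase genes, the genes whose products copy the genome before a cell divides. A gene was a member when its symbol was on the list and among the features of both count matrices. Of 44 listed genes, 42 were found, out of 22804 genes in all, and RRM2 and DSCC1 were left out because their symbols were not among the features. The list was chosen by name and not by level. The cells were primary endothelial cells (ECs) of the domestic pig, released with digestion buffer from a perfused lung lobe and from the aorta close to the lung, and grown in DMEM with fetal calf serum, non-essential amino acids, pyruvate, Glutamax and antibiotics. No genotype or further treatment is named. Tissues for scRNA-seq came from 6-month-old hybrids of Landrace, Large White and Duroc, without a word on these cultures in particular, and the number and sex of the animals are not given in the sources used here. Each tissue gave 1 scRNA-seq library, so lung against aorta is a comparison of 2 libraries, in which tissue, animal, culture and library cannot be told apart. The question addressed is how much of the replication programme was present, in which of the cultured cells, and in what order over the cell cycle.

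DNA replication starts where the MCM proteins have been loaded on DNA by CDC6 and its partners, while geminin (GMNN) keeps loading from happening again in the same cycle. CDC45 and the GINS complex turn the loaded MCM ring into the moving helicase, PRIM1 and POLA1 lay down the primer, RFC2 belongs to the loader of the PCNA clamp, and POLD3 and FEN1 act in copying and maturing the lagging strand. Other members supply precursors (TYMS, TK1, RRM1), package new DNA (NASP, CHAF1B, SLBP), copy DNA methylation (UHRF1, DNMT1) or guard and repair forks (CLSPN, TIPIN, BRCA1, BLM). Many of these genes are transcribed by E2F factors late in G1, and most ECs in an intact vessel are out of the cycle while ECs in serum divide.

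The aorta library held 46080859 unique molecular identifiers (UMIs, counted molecules) in 1185 cells and the lung library 57213236 UMIs in 5946 cells, and the 2 libraries shared 5 cell barcodes. Cells with over 200 and under 5000 detected genes and under 30% mitochondrial UMIs were kept. The upper limit on genes was meant against doublets in the study. This left 5683 lung cells with a median of 9453 UMIs and 246 aorta cells with a median of 4691 UMIs. With no upper limit on genes the aorta had 955 cells with a median of 52080 UMIs. The study states more aorta cells than the limit leaves here, so whether it was applied to that library is not known. Summed levels and counts of members past a fold are given both ways, whereas levels by complex, ratios of single genes, per-cell spread, co-detection and order in the aorta are given with no upper limit unless stated otherwise. Clusters were made without the members, the other cell cycle lists and the markers. A cluster that held at least 6 of the 13 endothelial markers was called endothelial-like, and a cluster with raised COL1A1 and COL1A2, the chains of type I collagen, was called collagen-high.

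Endothelial-like cells numbered 4926 in the lung, 159 in the aorta under the gene limit and 632 in the aorta with no upper limit. Collagen-high cells numbered 334, 21 and 142 in the same order. The endothelial name rests on PECAM1 (1596 CPM, counts per 1000000 UMIs of the class, in the lung and 1292 in the aorta with no upper limit) and CDH5 (157 and 194 CPM). The defining markers VWF and KDR were near 0, at 0.358 and 1.71 CPM in the lung and 0.198 and 0.369 CPM in the aorta. In collagen-high cells COL1A1 stood at 5318 CPM in the lung and 4913 CPM in the aorta with no upper limit, and markers of mural cells (PDGFRB, CSPG4) or of EndMT (ACTA2, ACTG2) were among the leading genes of some of their clusters, so no cell type is given to them. The summed collagen-high markers were at 34.5 CPM in lung and 202 CPM in aorta endothelial-like cells with no upper limit, and the summed endothelial markers at 345 and 87.9 CPM in the collagen-high cells of lung and aorta. The part of such mixing in the results was not tested. Among the 159 aorta endothelial-like cells, 54 stood apart with under 1% mitochondrial UMIs. Their markers go partly against the name, with PECAM1 at 229 against 1199 CPM in the other 105 cells, CDH5 at 33.6 against 241 CPM and ACTA2 at 148 against 5.92 CPM. In these cells the summed EndMT markers were at 1607 CPM and the summed endothelial markers at 706 CPM. Summed levels and counts of members under the gene limit that use aorta endothelial-like cells are given with and without them.

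To show what the members share in sequence, the 250 bases before and 50 bases after each annotated gene start were read from the RefSeq genome of Sscrofa11.1, the build of the counts. A gene start was found on a chromosome for 41 of the 42 members, all except MCM5. The E2F-type words TTTCCCGC, TTTCGCGC, TTTGCCGC and TTTGGCGC were searched on both strands. At least 1 was present in 13 members (31.7%), in 10 of 34 other replication genes (29.4%), in 3 of 28 mitosis genes (10.7%) and in 656 of 19534 protein-coding genes (3.36%). CCAAT, the word bound by NF-Y, was present on either strand in 24 of 41 members (58.5%), in 82.1% of the mitosis genes and in 35.4% of all protein-coding genes. Both kinds of word were present in 8 members (19.5%) and in 1.32% of all genes.

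The 13 members with an E2F-type word are printed here because the word was more common among members (31.7%) than among all protein-coding genes (3.36%). Each line gives the surroundings of the match nearest the gene start, 5′ to 3′ on the gene's strand, with the match in capitals.
MCM6, chr15:15923565-15923594, plus strand: gggcaggcttgGCGCGAAAtctctgagctc
TYMS, chr6:105660244-105660273, minus strand: ccggcgctttgGCGGGAAAagaggcgtcgg
HELLS, chr14:105966972-105967001, minus strand: gatgacggtgtTTTCCCGCgaaggagagcg
WDR76, chr1:127741308-127741336, minus strand: cgccacttctgGCGGGAAAtggctctctg
UBR7, chr7:114590947-114590969, plus strand: tcgcgcccgctTTTCCCGCctcc
POLD3, chr9:8906484-8906513, plus strand: ctaaagagacgTTTCCCGCcggcgggagcc
MSH6, chr3:92814107-92814136, minus strand: ctcctcccagaTTTCCCGCcagcaggcgcc
ATAD2, chr4:16012262-16012291, plus strand: ccggcgtccacGCGCCAAAattccaaaccc
TIPIN, chr1:164369288-164369317, minus strand: gattgcgcaaaTTTGGCGCcaactctaagg
CASP8AP2, chr1:57834126-57834155, plus strand: gactgtgagagTTTGGCGCcaatcgtgttt
POLA1, chrX:20756584-20756613, plus strand: gtcatcatgggGCGCCAAAcgcgcgcccgc
CHAF1B, chr13:200048125-200048145, plus strand: gggcctgcagcGCGCGAAAag
DNMT1, chr2:69040318-69040347, minus strand: cgattttttttTTTGCCGCtcgggagctga

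The printed matches began between 114 bases before the annotated start, in CASP8AP2, and 40 bases after it, in CHAF1B. The match of ATAD2 began 5 bases, that of TIPIN 9 bases and that of POLA1 79 bases before the start, whereas that of TYMS began 17 bases after it, in the transcribed part. MCM6 was the member with the most matches, 3, of which the printed one began 62 bases before the start. In CASP8AP2 the last letter of the E2F-type word is the first of a CCAAT. A match is only letters in this window, and other members such as PCNA and CDC6 were without an exact match.

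In lung endothelial-like cells, members together made up 2055 CPM (95% interval 2042 to 2067), from 103441 UMIs. The aorta endothelial-like cells were at 1895 CPM (1822 to 1970) under the gene limit, at 1810 CPM (1734 to 1889) under it without the 54 cells that stood apart, and at 2272 CPM (2257 to 2288) with no upper limit. Collagen-high cells were at 2122 CPM (2076 to 2169) in the lung, 2512 CPM (2290 to 2750) in the aorta under the limit and 2892 CPM (2857 to 2928) with no upper limit. All intervals are exact Poisson intervals that cover counting error only. There are no replicate libraries, so no difference was tested. Because the 3′ method counts each captured transcript once, levels of different genes were compared without a correction for length.

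The ranking was led by precursor supply, clamp loading and chromatin genes. In lung endothelial-like cells, TYMS, the enzyme that makes thymidylate, was the highest member at 171 CPM (168 to 175). RFC2 followed at 165 CPM (161 to 168), and their intervals overlapped at the edge. NASP, a histone chaperone, was at 153 CPM and DNMT1, the maintenance methyltransferase, at 144 CPM, and each was apart from its neighbours by more than the counting error. USP1, a deubiquitinase of PCNA and FANCD2, stood at 121 CPM and PCNA itself at 106 CPM. SLBP, which binds the end of histone mRNA, stood at 95.3 CPM and MCM7 at 91.6 CPM, with overlapping intervals. ATAD2 (85.0 CPM) and the thymidine kinase TK1 (79.5 CPM) closed the 10 highest, which held 59.0% of the members' UMIs. At the other end, FEN1, the flap nuclease, had 79 UMIs in 4926 cells, a level of 1.57 CPM, and DTL and CDC6 were at 4.35 and 6.26 CPM.

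Within complexes the counted levels of the members were far from equal. How fully the transcripts of each gene were captured and assigned to it was not tested. The MCM genes ran from MCM7 through MCM6 (69.9 CPM), MCM4 (59.7 CPM) and MCM5 (48.9 CPM) to MCM2 (32.4 CPM) in lung endothelial-like cells. In the aorta with no upper limit the same order held, with MCM7 at 92.2, MCM6 at 81.8, MCM4 at 66.0, MCM5 at 48.1 and MCM2 at 31.0 CPM. Under the gene limit MCM6 (72.9 CPM, 59.1 to 88.9) was above MCM7 (64.6 CPM, 51.7 to 79.8), with overlapping intervals. Of the helicase partners, GINS2 was at 42.5 CPM and CDC45 at 32.0 CPM in the lung and at 38.4 and 30.2 CPM in the aorta. The ribonucleotide reductase subunit RRM1 was at 25.9 CPM in the lung and 21.4 CPM in the aorta. UHRF1, which brings DNMT1 to hemimethylated DNA, was at 32.8 and 42.3 CPM.

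The order of the members was much alike in all 4 main classes. Across the 42 genes, Spearman's rho of levels was 0.979 between lung and aorta endothelial-like cells and 0.953 between endothelial-like and collagen-high cells of the lung, which describes levels that share cells, library and gene models and is not a test. Of the 10 highest members of each class, 9 were common to all 4. For 17 members the highest class was less than 1.5-fold above the lowest, and BRCA1 was the flattest at 1.12-fold. For 7 members it was 2-fold or more, and CDCA7, a gene of the HELLS chromatin remodeller, had the widest range at 4.30-fold. These ranges were not taken over all genes. Whether members were flatter than genes at large is therefore not known.

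**Figure D1:**
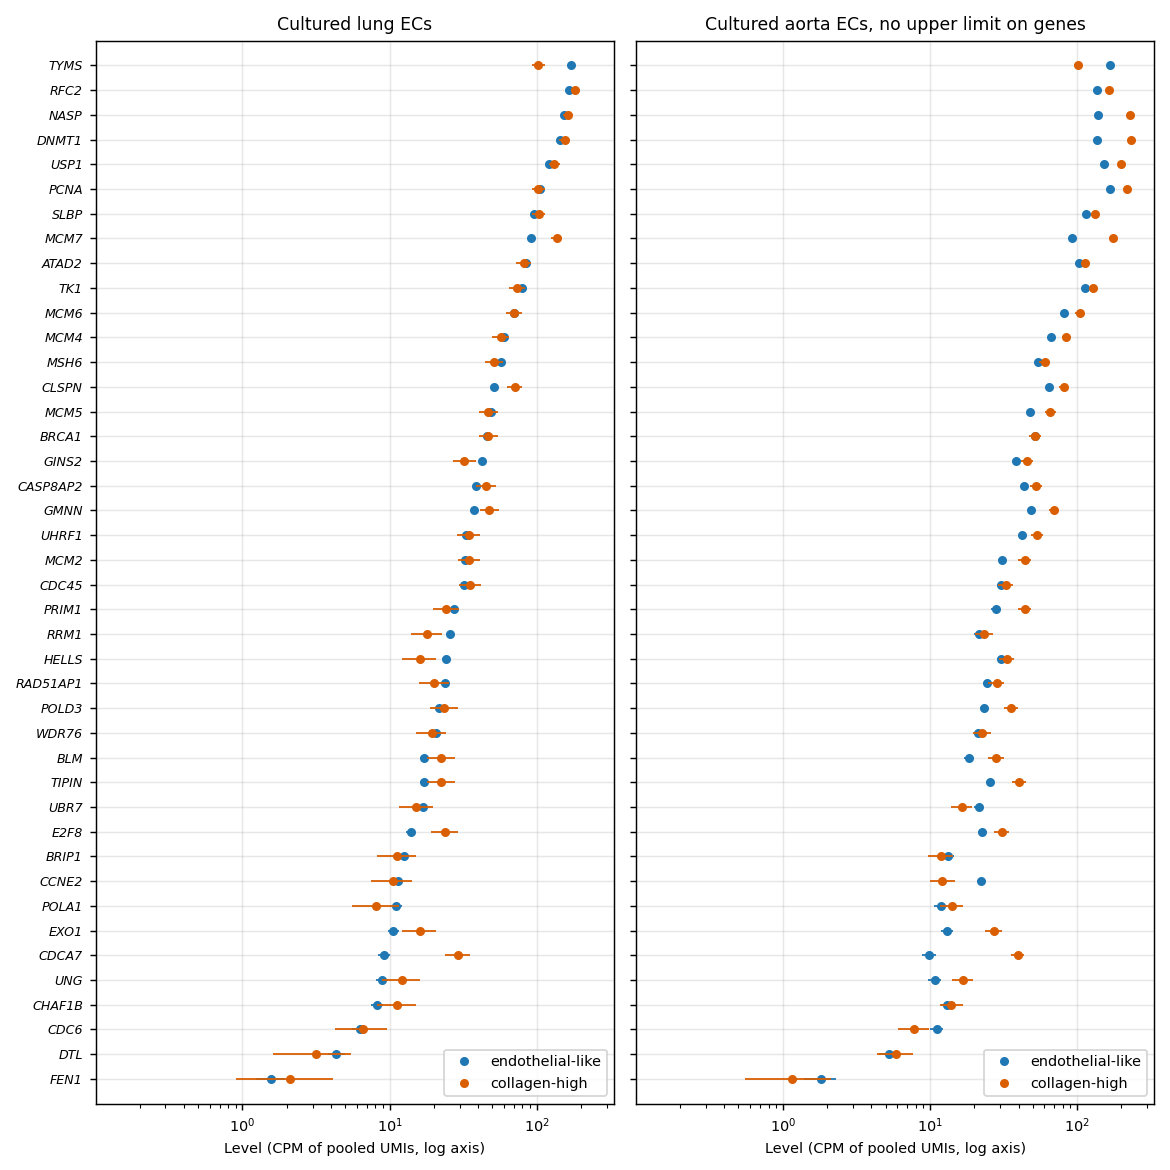
Level of each of the 42 genes (CPM of pooled UMIs, log axis) in endothelial-like (blue) and collagen-high (orange) cells of the lung, left, and of the aorta with no upper limit on genes, right; lines are exact Poisson 95% intervals. TYMS is the member at the top of the lung order (171 CPM) and lies lower in collagen-high cells of both libraries, whereas CDCA7 lies higher in them (29.1 against 9.18 CPM in the lung and 39.5 against 9.84 CPM in the aorta).

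The sum over a class hides wide differences between its cells. With every cell thinned at random to 5000 UMIs, lung endothelial-like cells held a median of 8 member UMIs, with a 10th percentile of 2 and a 90th of 20. In aorta endothelial-like cells with no upper limit these were 8, 1 and 24. Collagen-high cells were more even, with 10 (4.2 to 18) in the lung and 14.5 (7 to 22) in the aorta. The variance of the member UMIs per cell was 4.64 times the mean in lung and 7.77 times in aorta endothelial-like cells, against 2.74 and 2.55 times in collagen-high cells, where a value of 1 is what counting alone gives. Cells with at most 2 member UMIs made up 10.5% (9.65 to 11.4) of thinned lung and 20.5% (17.4 to 23.9) of thinned aorta endothelial-like cells, and 4.15% (2.23 to 6.998) and 0.725% (0.0183 to 3.97) of collagen-high cells. Without thinning these shares were 2.58%, 1.74%, 1.80% and 0.704%, over all cells of each class and at unlike depths. Thinning left out 100 lung and 3 aorta endothelial-like cells and 21 lung and 4 aorta collagen-high cells.

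**Figure D2:**
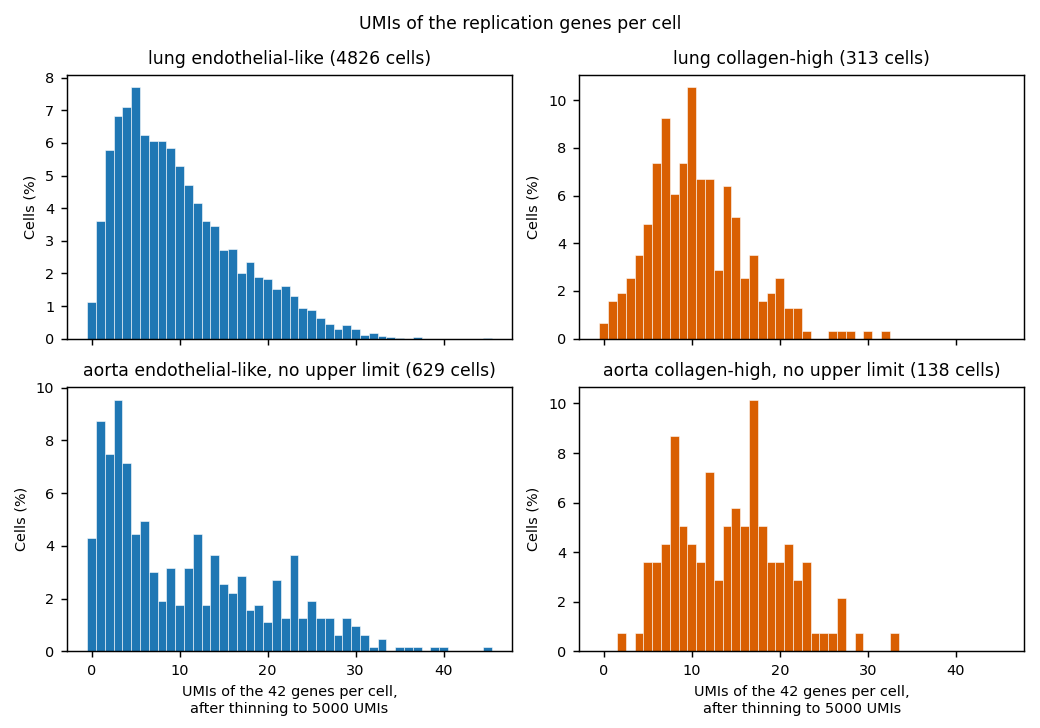
Share of cells (%, vertical) by the number of UMIs of the 42 genes per cell after thinning to 5000 UMIs (horizontal), for endothelial-like (blue) and collagen-high (orange) cells of the lung and of the aorta with no upper limit on genes. Endothelial-like cells pile up at low counts with a long tail to 45 UMIs, while the aorta collagen-high cells centre near 14.5.

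The clusters show the same range. The 7 endothelial-like clusters of the lung lay between 759 and 3844 CPM of members, and the 5 of the aorta with no upper limit between 653 and 4303 CPM. No member was among the genes used to make clusters. Cell cycle genes outside the lists were not withheld, and ASPM, BUB1B and HIST1H1D were among the leading genes of some of these clusters. The clusters could thus still divide cells by cycle phase, so this range is not independent of the cycle.

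Member levels differed between named aorta endothelial-like cells on either side of the upper limit on detected genes. Of the 632 aorta endothelial-like cells named with no upper limit, the 578 with 5000 or more genes held members at 2292 CPM (2276 to 2308) and the 54 with fewer genes at 1400 CPM (1318 to 1487). Shallow clusters left unnamed, of 76 and 39 cells with medians of 958 and 3047 genes, are outside this comparison. They held 7 and 9 endothelial markers, and members at 2411 and 2233 CPM. The values here therefore describe named cells only, and not all aorta cells under the limit. Of 40 members compared, 24 were at least 1.5-fold higher in the cells with more genes, against 16.9% of all genes compared, and 0 were as much lower, against 12.3%. With a mitochondrial limit of 10% the count was 38. The median member ratio was 1.62, while that of all genes was 1.02. MCM4 was at 66.9 against 23.5 CPM, a ratio of 2.85 (1.80 to 4.82). MSH6, a mismatch repair gene, was at 55.2 against 19.6 CPM (ratio 2.82, 1.71 to 5.05), and TK1 was at 115 against 47.0 CPM (ratio 2.46, 1.77 to 3.51). POLA1 (11.8 against 11.7 CPM) and UNG (10.8 against 10.4 CPM) were close to level. The mitosis genes lay the same way, with 26 of 27 compared at least 1.5-fold higher, and 18 of 30 other replication genes were higher and 1 lower. Cells with more genes had a median of 57144 UMIs against 13268, and the part of depth in this difference was not tested.

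Which members stood apart between lung and aorta endothelial-like cells differed with that limit. Under it, 10 of 40 members compared were at least 1.5-fold higher in the lung (against 14.1% of all genes) and 4 as much lower (10.0%, against 17.8%). Against the aorta cells with no upper limit, 0 were higher (3.97% of all genes) and 5 lower (12.5%, against 10.3%), which is a share near the background. The median member ratio was 1.08 under the limit and 0.901 without it, beside 0.976 and 0.956 for all genes. With TMM factors, which shifted all lung over aorta ratios by 0.11 on the log2 scale, the split under the limit was 14 higher and 3 lower. When every cell weighed the same it was 5 higher and 11 lower. Leaving out the 54 aorta cells with few mitochondrial UMIs gave 12 higher (30.0%, against 16.3%) and 5 lower (12.5%, against 21.0%). Of 32 other replication genes 4 were higher and 3 lower under the limit, and of 28 mitosis genes 15 were higher and 1 lower under it, and 0 either way without it.

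CCNE2, CDC6 and CHAF1B were past 1.5-fold lower in the lung by both readings. CCNE2, a cyclin of the G1 to S transition, was at 11.4 CPM in the lung, 22.6 CPM in the aorta under the limit and 22.4 CPM without it, so the aorta was 1.96-fold higher (1.76 to 2.19) with no upper limit. Under the limit without the 54 cells CCNE2 was at 17.8 CPM in the aorta, and the interval of its ratio (0.416 to 1.04) then included 1. CDC6 was at 6.26, 15.8 and 11.08 CPM, and the aorta was 1.77-fold higher (1.52 to 2.06). CHAF1B, a subunit of the chromatin assembly factor, was at 8.22, 15.0 and 13.1 CPM, with the aorta 1.59-fold higher (1.39 to 1.82). E2F8, a repressor among the E2F factors, was at 13.9, 19.5 and 22.7 CPM, and PCNA at 106, 147 and 167 CPM. Under the limit both fell short of 1.5-fold, though E2F8 passed it there without the 54 cells (ratio 0.631, 0.427 to 0.973). Both were past it against the cells with no upper limit, with the aorta higher 1.63-fold (1.47 to 1.81) for E2F8 and 1.58-fold (1.52 to 1.64) for PCNA. UNG was past it only under the limit, at 8.90 against 14.3 CPM, and the interval of its ratio (0.394 to 1.04) included 1.

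Among the members that were higher in the lung under the limit, RRM1 had the largest ratio. It was at 25.9 CPM in the lung and 6.77 CPM in the aorta from 9 UMIs, a ratio of 3.83 (2.01 to 8.40), but at 21.4 CPM in the aorta with no upper limit. BRIP1 (2.38, from 7 aorta UMIs), BLM (1.91) and MSH6 (1.81) followed, which are helicases and a mismatch repair gene. NASP was at 153 against 88.0 CPM, a ratio of 1.74 (1.45 to 2.11), and at 139 CPM in the aorta with no upper limit. None of these 5 kept a ratio of 1.5 against the aorta cells with no upper limit. RFC2 was also past the fold under the limit at 1.54 (1.31 to 1.84), and was at 136 CPM in the aorta without it.

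**Figure D3:**
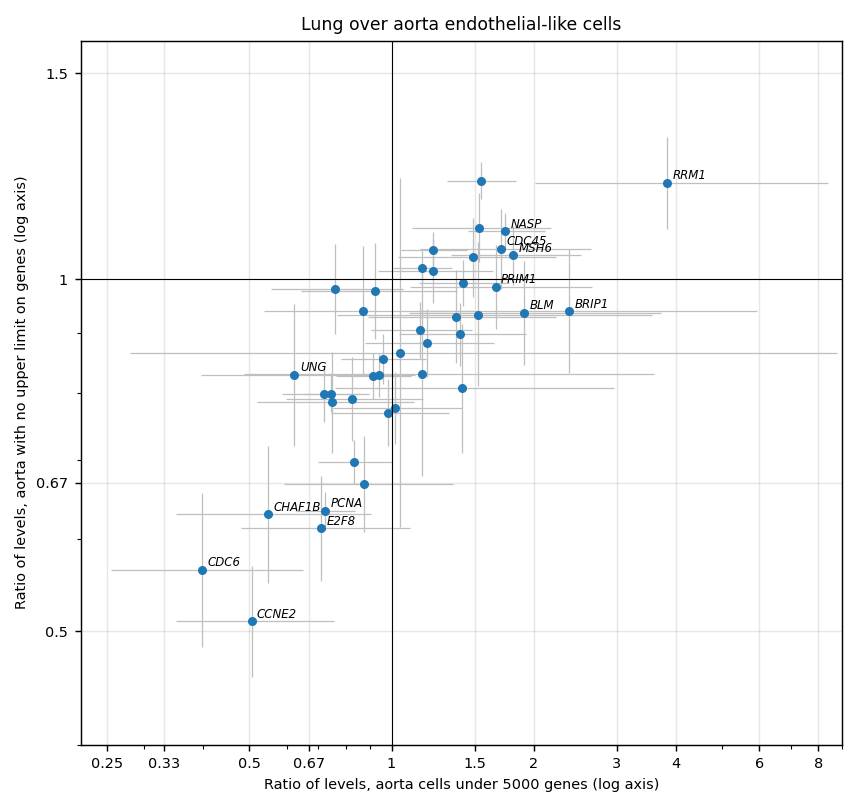
Ratio of pooled levels, lung over aorta endothelial-like cells, for each member, with aorta cells under 5000 genes on the horizontal axis and with no upper limit on the vertical axis (log axes; grey lines are 95% counting intervals, and both axes share the lung cells). CCNE2 and CDC6 are low on both axes (0.506 and 0.396 across, 0.510 and 0.565 up), while RRM1 lies at 3.83 on the horizontal axis and at 1.21 on the vertical.

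Collagen-high cells of the lung differed little from their endothelial-like neighbours in these genes. Of 40 members compared, 3 were at least 1.5-fold higher (7.50%, against 13.8% of all genes) and 2 as much lower (5.00%, against 16.7%), fewer than among genes at large. The median member ratio was 1.05 beside 1.00 for all genes. In the aorta with no upper limit, 10 of 41 were higher (24.4%, against 16.7%) and 2 lower (4.88%, against 21.0%), with a median of 1.22 beside 1.00. Under the gene limit, where the collagen-high class is 21 cells, 16 of 40 were higher (40.0%, against 27.1%) and 4 lower (10.0%, against 28.5%). Without the 54 endothelial-like cells that stood apart these were 19 (47.5%, against 26.7%) and 3 (7.50%, against 28.7%). The mitosis genes were past 1.5-fold higher for 1 of 28 in the lung and 20 of 28 in the aorta with no upper limit, and the other replication genes for 3 of 31 and 11 of 33.

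CDCA7 had the largest ratio in each library. In the lung it was at 9.18 CPM in the endothelial-like and at 29.1 CPM in the collagen-high class, a ratio of 3.17 (2.55 to 3.91), and at 9.84 and 39.5 CPM in the aorta with no upper limit, a ratio of 4.01 (3.45 to 4.67). Under the gene limit it was at 6.01 and 75.1 CPM from 8 and 14 UMIs, so the direction was the same in all 3 readings. EXO1, a nuclease of mismatch repair and end resection, was at 10.6 and 16.0 CPM in the lung (ratio 1.51, 1.14 to 1.97) and at 13.1 and 27.2 CPM in the aorta (ratio 2.07, 1.76 to 2.43). E2F8 was past the fold in the lung alone, at 13.9 and 23.9 CPM (ratio 1.72, 1.37 to 2.14), while its aorta ratio was in the same direction at 22.7 and 30.6 CPM.

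TYMS went the other way in each library. In the lung it stood at 171 CPM in the endothelial-like and at 103 CPM in the collagen-high class, which is 1.67-fold lower (1.51 to 1.85). In the aorta with no upper limit it was at 168 and 101 CPM, 1.66-fold lower (1.54 to 1.78), and under the limit at 148 and 85.9 CPM. Its partner enzyme TK1 did not share this, at 79.5 and 73.6 CPM in the lung and 114 and 129 CPM in the aorta. HELLS was lower in collagen-high cells of the lung, at 24.1 and 16.0 CPM (1.51-fold, 1.17 to 1.99), and at 30.6 and 33.2 CPM in the aorta. With no upper limit CCNE2 was lower in collagen-high cells of the aorta, at 22.4 and 12.2 CPM (1.84-fold, 1.5 to 2.27), and within the fold at 11.4 and 10.5 CPM in the lung. Its aorta ratio turned under the gene limit, at 22.6 and 26.8 CPM from 30 and 5 UMIs, and the interval (0.361 to 3.10) included 1.

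With no upper limit, the remaining members past the fold in the aorta were higher in collagen-high than in endothelial-like cells. GINS2, GMNN and CHAF1B were past it the other way under the gene limit, from 3, 4 and 1 collagen-high UMIs, and the intervals of their ratios included 1. With no upper limit MCM7 was at 92.2 CPM in the endothelial-like and 174 CPM in the collagen-high class (ratio 1.89, 1.77 to 2.01), DNMT1 at 136 and 232 CPM (ratio 1.70, 1.61 to 1.79) and NASP at 139 and 230 CPM (ratio 1.65, 1.56 to 1.74). In the lung, MCM7 was just under the fold at 91.6 and 137 CPM, whereas DNMT1 was at 144 and 155 CPM and NASP at 153 and 164 CPM. TIPIN, PRIM1, UNG, BLM and POLD3 had aorta ratios from 1.52 to 1.58 with no upper limit. MCM7, DNMT1 and NASP had ratios under the gene limit of 1.49, 1.23 and 1.28, whose intervals included 1. The 5 MCM genes together were at 302 and 345 CPM in the lung and at 319 and 472 CPM in the aorta.

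The collagen-high class of each library joined 2 clusters, which were not alike in the lung. The larger lung cluster, 242 cells led by ACTG2 and ACTA2, held members at 2256 CPM (2201 to 2312), with 6 of 40 at least 1.5-fold higher than in endothelial-like cells (15.0%, against 14.1%) and 3 lower (7.50%, against 17.4%). The smaller, 92 cells with WT1, IGFBP5 and COL3A1 among its leading genes, held them at 1741 CPM (1659 to 1825), with 1 higher (2.50%, against 16.9%) and 11 lower (27.5%, against 20.5%). In the aorta with no upper limit both clusters, of 124 and 18 cells, were at 2892 CPM. The first had 9 of 41 members higher (against 17.0%) and 2 lower (against 21.0%), and the second 7 higher (against 17.7%) and 2 lower (against 24.2%).

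A further aorta class under the gene limit, 66 cells named EndMT-like from their raised markers, had a median of 0.0987% mitochondrial UMIs and held members at 2719 CPM (2539 to 2910). Of 40 members compared with aorta endothelial-like cells, 14 were at least 1.5-fold higher there (35.0%, against 23.5%) and 7 as much lower (17.5%, against 48.5%). Without the 54 cells these were 15 (37.5%, against 24.9%) and 5 (12.5%, against 49.5%).

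**Figure D4:**
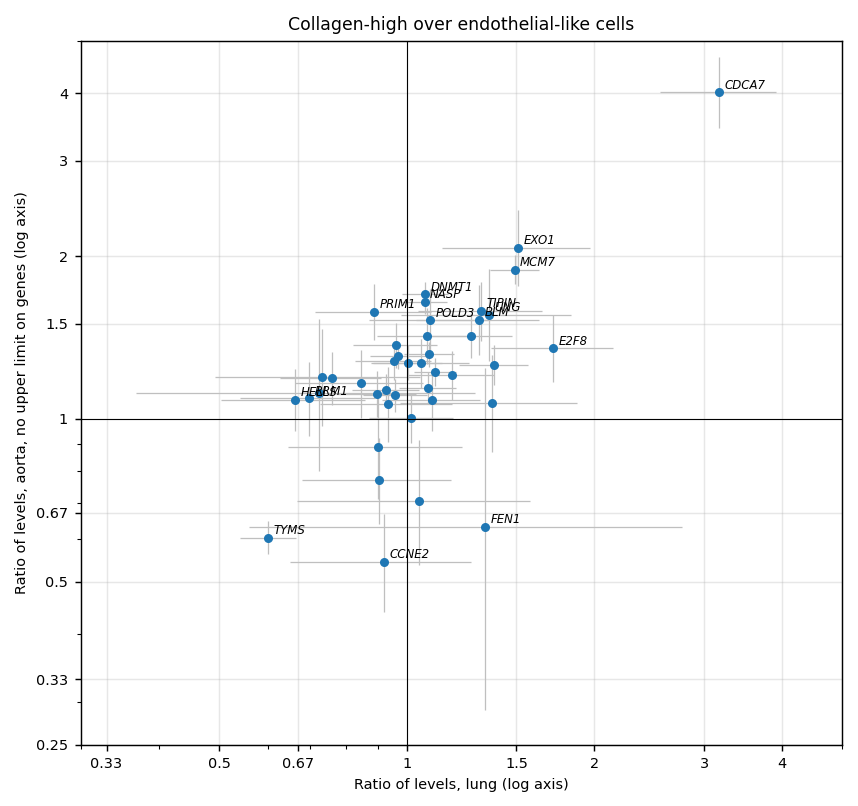
Ratio of pooled levels, collagen-high over endothelial-like cells, for each member in the lung (horizontal) and in the aorta with no upper limit on genes (vertical); log axes, with 95% counting intervals in grey. CDCA7 lies highest on both axes (3.17 and 4.01), TYMS lies below 1 on both (0.599 and 0.603), and most other members lie near 1 in the lung and above 1 in the aorta.

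Between the collagen-high cells of the libraries, the lung was lower. With no upper limit in the aorta, 0 of 40 members were at least 1.5-fold higher in the lung (8.71% of all genes) and 10 as much lower (against 10.3%), and the median ratio was 0.728 beside 0.961 for all genes. PCNA was at 103 CPM in the lung and 218 CPM in the aorta, so the aorta was 2.12-fold higher (1.90 to 2.37). HELLS was at 16.0 and 33.2 CPM (2.07-fold, 1.57 to 2.78) and PRIM1, the primase, at 24.4 and 43.9 CPM (1.80-fold, 1.43 to 2.29). Of the mitosis genes, 27 of 28 were as much lower in the lung, and of the other replication genes 7 of 31. Under the gene limit 6 members were higher (15.0%, against 24.7%) and 16 lower (40.0%, against 27.7%), from 468 member UMIs in the 21 aorta cells, and with TMM factors 8 were higher and 14 lower.

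Members were found together in the same cells. For each gene, the UMIs of the other members in cells with a UMI of that gene were divided by those in cells with none, at a fixed depth (5000 UMIs in the lung, 20000 in the aorta with no upper limit). Of 40 lung members seen in at least 2% of endothelial-like cells, all 40 had a ratio above 1, with a median of 1.52 and a range from 1.10 to 1.78, and 25 (62.5%) reached 1.5, against 0.99% of 8993 genes. In the aorta all 42 reached 1.5, against 7.22% of 10477 genes, with a median of 2.32 and a range from 1.70 to 4.35. Genes that were no members had medians of 1.01 and 1.03. At 5000 UMIs the aorta median was 1.94, so the libraries stayed apart at equal depth.

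PCNA was at the top in both libraries. In the lung, cells with a PCNA UMI held 13.3 UMIs of the other members and cells without one 7.46, a ratio of 1.78, and in the aorta 53.7 and 12.3, a ratio of 4.35. CDC6 (1.76), E2F8 (1.75), ATAD2 (1.74) and UHRF1 (1.73) followed in the lung, and DNMT1 (4.31), ATAD2 (3.70), TK1 (3.56) and MCM7 (3.54) in the aorta. The lowest in the lung were TYMS (1.10), RRM1 (1.20), UBR7 (1.24), SLBP (1.27) and CASP8AP2 (1.29), so the member with the most UMIs had the lowest ratio. In the aorta the lowest were RRM1 (1.70), UBR7 (1.72), FEN1 (1.73), BRIP1 (1.77) and CASP8AP2 (1.79). TYMS was there at 2.25. Pairwise Pearson correlations of log counts ran the same way, with PCNA and ATAD2 as the highest pair in each library at 0.284 in the lung and 0.717 in the aorta, and medians of 0.0956 over 325 pairs and 0.323 over 780 pairs.

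Co-detection was weaker in collagen-high cells. The median ratio was 1.23 in the lung and 1.17 in the aorta with no upper limit, and 2 of 40 (5.00%, against 0.169% of genes) and 1 of 41 members (2.44%, against 0.119%) reached 1.5. These were POLA1 (1.68) and CDC6 (1.55) in the lung and MCM7 (1.93) in the aorta. POLA1 was seen in 2.56% and CDC6 in 4.15% of 313 lung cells, and MCM7 in 96.85% of 127 aorta cells. Each of these ratios therefore rests on few cells with, or few without, the gene. Of genes that are no members, those with the highest ratios in both endothelial-like classes included TOP2A (1.80 in the lung, 2.85 in the aorta), FBXO5 (1.80 and 2.81), PKMYT1 (1.79 and 1.96), TCF19 (1.79 and 2.53), BARD1 (1.77 and 2.60), TIMELESS (1.77 and 1.77), MCM10 (1.76 and 2.72) and STMN1 (1.76 and 5.35). The other two of the 10 highest, ENSSSCG00000031741 (1.88 and 4.68) and ENSSSCG00000036080 (1.75 and 1.80), had no symbol.

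To order the members over the cycle, thinned endothelial-like cells were divided by lists that hold no member, 36 other replication genes and 28 mitosis genes. A cell was high for a list at or above the 67th percentile of its library. The 4 groups are ranges and not cell types, and 30.1% of lung and 5.59% of aorta cells lay within 1 UMI of a threshold. Members were at 1232 CPM (1212 to 1253) in lung cells low for both lists, 2943 CPM (2890 to 2996) in cells high for replication only, 2808 CPM (2761 to 2856) in cells high for both and 2143 CPM (2095 to 2192) in cells high for mitosis only. In the aorta with no upper limit the levels were 1004, 4388, 3939 and 2624 CPM in the same order. The groups held 2334, 813, 967 and 712 lung cells and 328, 66, 129 and 67 aorta cells. Lung and aorta cells were thinned here to the unlike depths given for co-detection. At the lung depth of 5000 UMIs the aorta levels were 891, 3715, 3716 and 2593 CPM. Aorta replication-only cells were then level with cells high for both, so the higher aorta level in replication-only cells depends on depth.

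Of the 42 members, 27 in the lung and 28 in the aorta were highest in the replication-only cells, 23 of them in both libraries. A further 14 in each library were highest in cells high for both lists, 10 of them in both. The remaining lung member, RRM1, was highest in the mitosis-only cells, at 38.2 CPM beside 36.2 CPM in cells high for both. Some of these calls were near ties, such as MCM5 in the lung, at 72.57 CPM in replication-only cells and 72.60 CPM in both. Under 4 alternatives, members highest in replication-only cells numbered from 22 to 30 in the lung and from 27 to 34 in the aorta. The share of all genes highest in that group was not counted, so these counts have no background.

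The earliest members by this measure were those with the lowest ratios of mitosis-only to replication-only cells. CDC6 was at 14.3 CPM in replication-only and 2.25 CPM in mitosis-only cells of the lung (ratio 0.158) and at 39.4 and 5.22 CPM in the aorta (0.133). CCNE2 was at 20.2 and 4.49 CPM in the lung (0.223) and at 73.5 and 10.4 CPM in the aorta (0.142). DTL, part of the ubiquitin ligase that removes licensing factors, had the lowest lung ratio at 12.3 and 0.843 CPM (0.0685), and was at 14.4 and 4.48 CPM in the aorta (0.311). UNG, which removes uracil from DNA, was at 21.6 and 4.49 CPM in the lung (0.208) and at 26.5 and 11.9 CPM in the aorta (0.450). DTL and UNG were thus among the lowest in the lung only, as UHRF1 and MSH6 had lower aorta ratios than either. In lung mitosis-only cells the counting intervals were 0.174 to 2.46 CPM for DTL, 0.970 to 4.43 CPM for CDC6 and 2.57 to 7.30 CPM for CCNE2 and UNG. Neighbouring intervals overlap, so the order of close ratios is not settled. MSH6 (0.338 and 0.262), MCM4 (0.356 and 0.406), UHRF1 (0.386 and 0.246) and HELLS (0.405 and 0.311) also had low ratios in both libraries.

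Several genes of the fork lay in the middle of the order. PCNA was at 48.7, 175, 162 and 93.3 CPM over the 4 lung groups, taken as low for both, replication only, both and mitosis only. In the aorta it was at 54.7, 323, 328 and 201 CPM. GINS2 (0.509 and 0.554), MCM5 (0.581 and 0.621), MCM7 (0.608 and 0.461) and MCM2 (0.659 and 0.550) had ratios of mitosis-only to replication-only cells in this range. CDC45 was later than GINS2, its partner in the helicase, at 1.17 in the lung and 0.769 in the aorta.

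The precursor enzymes lay towards the late end. TK1 was at 90.3 CPM in replication-only, 138 CPM in both and 103 CPM in mitosis-only cells of the lung, and at 155, 237 and 157 CPM in the aorta. RRM1 had the highest lung ratio at 1.51 and was at 0.855 in the aorta, where it was highest in replication-only cells. TYMS was the flattest member, at 143, 171, 210 and 199 CPM over the lung groups and 130, 192, 233 and 226 CPM in the aorta, so its highest group was 1.46-fold and 1.79-fold above the lowest. By contrast E2F8 was at 1.71, 17.7, 30.8 and 16.0 CPM in the lung, an 18.0-fold span, and at 1.98, 53.0, 55.0 and 20.1 CPM in the aorta, a 27.8-fold span. EXO1 shared this shape, with a span of 9.96-fold in the lung and 16.2-fold in the aorta.

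**Figure D5:**
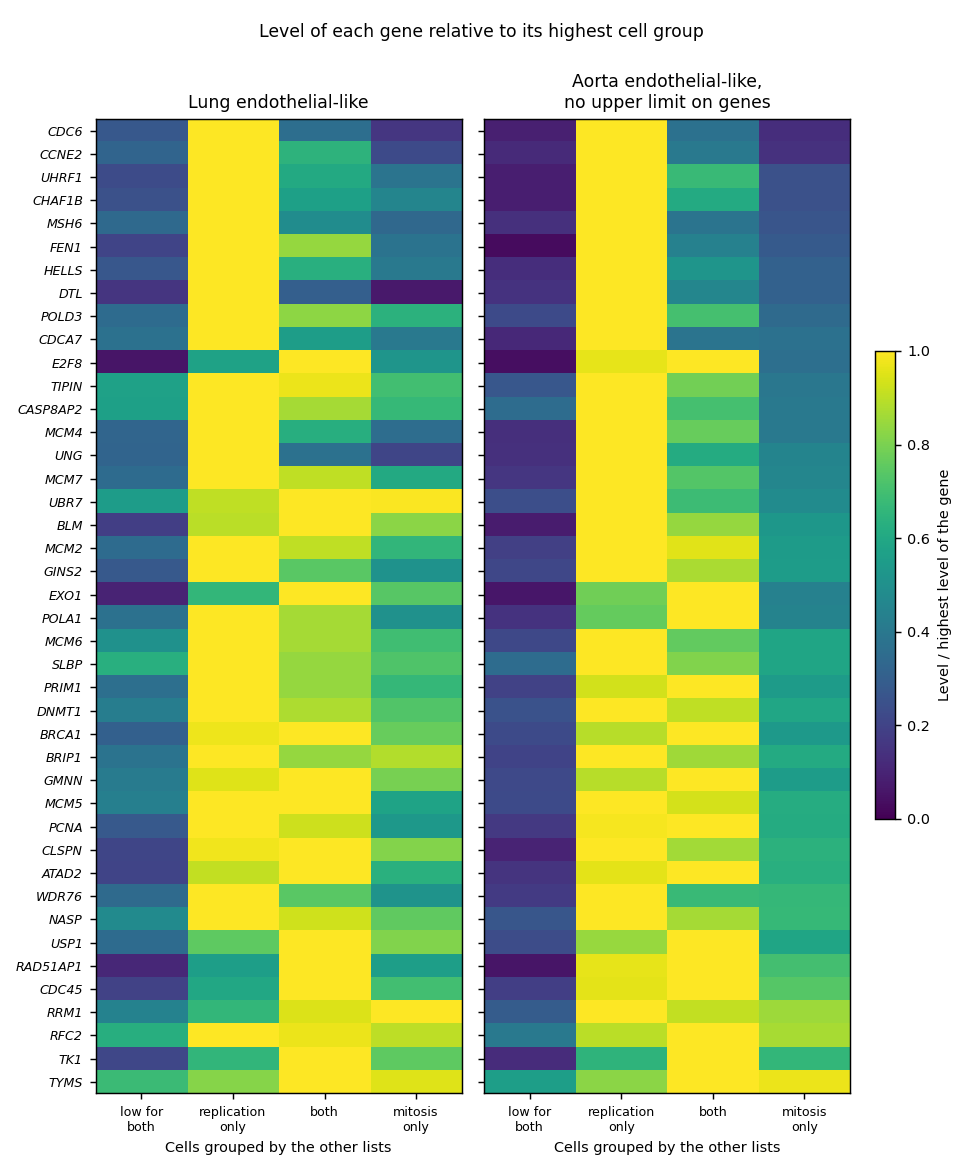
Level of each member relative to its own highest cell group (colour, 0 to 1) in endothelial-like cells low for both lists, high for other replication genes only, high for both, or high for mitosis genes only; genes are sorted by the aorta ratio of mitosis-only to replication-only cells. CDC6 and CCNE2 at the top are bright in replication-only cells alone, and TYMS at the bottom is bright in all groups but the cells low for both.

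The same division of collagen-high cells gave a shallower pattern. In the lung, members were at 1675, 2810, 2683 and 2075 CPM over the 4 groups. In the aorta with no upper limit they were at 2757, 3473, 3327 and 2523 CPM, so that collagen-high cells low for both lists held members at 2757 CPM (2657 to 2860) where endothelial-like cells low for both held 1004 CPM (980 to 1029). The thresholds were set within each class and stood at 40 and 78 UMIs of the other replication and mitosis lists in collagen-high and at 36.6 and 53 UMIs in endothelial-like aorta cells, so low for both is not the same range in each.

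Members with and without an E2F-type word near the start were then set side by side in endothelial-like cells. The median ratio of replication-only cells to cells low for both was 2.68 for the 13 with a match and 3.10 for the 28 without one in the lung, and 4.60 and 6.12 in the aorta. Median co-detection ratios were 1.48 and 1.55 in the lung and 2.24 and 2.33 in the aorta, so each median was somewhat lower for members with a match.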

How the data were processed

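The authors deposited a count matrix for each library, with whole UMI counts from 10x 3′ sequencing and Cell Ranger 3.0.2 on Sscrofa11.1, unnormalized and before any limit on cells. The members, the gene lists and the naming thresholds were chosen with earlier results of these data known. Of the 22804 genes, 7825 carried an Ensembl identifier only and could not match a listed symbol.

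Each library was log-normalized to 10000 UMIs and clustered on its own in Seurat 5.3.0 (R 4.3.3) from 2000 variable genes, less markers, members and cycle lists, with 20 principal components at a resolution of 1. A marker was raised at 20 CPM and 2-fold above the rest, and an endothelial marker was held at 0.25 of the highest cluster. A class name needed 3 raised markers, or 6 held ones for endothelial-like, or both type I collagen chains for collagen-high. Shallow clusters with no marker of their own among the 10 leading genes were left unnamed. These names were rebuilt from markers and need not match the study's. Scrublet (scanpy 1.11.5) called 4 of 5683 lung cells, too few for the caller to have worked, 3 of 246 aorta cells under the gene limit and 9 of 955 with no upper limit, and no cells were removed. Leaving out the deepest 5% of cells was an alternative.

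UMIs were summed over a class and divided by its total (CPM). Genes with a mean of at least 5 CPM were compared, at a fold of 1.5. Intervals of levels are exact Poisson, of shares Clopper-Pearson and of ratios from the exact binomial, at 95%, for counting error only. With 1 library per tissue nothing was tested and cells were not used as replicates. Values are given in full for the 10 highest members, the 5 largest folds each way, the 5 highest and lowest co-detection ratios and the members of named complexes. Further members were picked with their values in view. The pooled counting, ratio and co-detection steps were checked on simulated data. edgeR 4.0.16 and DESeq2 1.42.0 gave scaling factors only. Python 3.11.15, numpy 2.4.6, scipy 1.17.1 and samtools 1.23.1 were used for the other steps.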

Additional observations from a re-analysis of the deposited data

Results flagged for a closer look

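GINS2, a subunit of the GINS complex, lay on opposite sides of 1 in the collagen-high over endothelial-like ratio of the 2 libraries. The ratio was 0.758 in the lung, from 32.2 and 42.5 CPM, and 1.189 in the aorta with no upper limit on genes, from 45.7 and 38.4 CPM, and neither reached 1.5-fold. Under the gene limit the aorta ratio was 0.579, from 3 UMIs in collagen-high cells. It is listed because the direction differed between the tissues, and the difference was not tested.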

How the results depend on the processing

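Of 126 alternatives, 104 left the value within counting error, or a count or ratio within 1.5 times. The other 22 did not, and the cause was not tested. Members past a fold were counted higher and lower together, so a change of direction does not show in the 104. With cells weighing equally, lung against aorta endothelial-like cells went from 10 higher and 4 lower to 5 higher and 11 lower. That alternative is among the 104. Summed levels of lung endothelial-like cells (2055 CPM) were 2080 with a 10% mitochondrial limit, 2073 at resolution 1.5, 1966 with cells weighing equally and 2520 without mitochondrial and ribosomal protein genes. Lung collagen-high cells (2122) were at 2247 without the deepest 5% of cells and 2652 without those genes. Aorta endothelial-like cells (1895) were at 2272 with no upper limit, 1686 with the 10% limit, 2315 with cells weighing equally, 2377 without those genes and 1810 without cells under 1% mitochondrial UMIs, an alternative chosen after seeing the data. Aorta collagen-high cells (2512) were at 2892 with no upper limit and 3182 without those genes. Of members past the fold, lung against aorta endothelial-like cells gave 14, but 6 with no upper limit in either library (all lower), 6 at a mean of 20 CPM and 3 at 2-fold. Collagen-high against endothelial-like cells gave 5 in the lung, but 2 at 20 CPM and 1 at 2-fold, and 20 in the aorta, but 12 with no upper limit and 12 at 2-fold. Lung against aorta collagen-high cells gave 22, but 12 with no upper limit. Aorta cells on either side of the gene limit gave 24, but 38 with the 10% limit. TMM shifted log2 ratios by 0.11 for lung against aorta endothelial-like cells, -0.14 for collagen-high against endothelial-like cells of the aorta and 0.19 for lung against aorta collagen-high cells. With 30 components no aorta cluster was collagen-high. Co-detection medians stayed between 1.49 and 1.55 in the lung and 2.07 and 2.38 in the aorta. No paired analysis was possible because each tissue has 1 library.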

Other observations

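Members were also measured in cells outside the endothelial-like and collagen-high classes. The 89 immune-like lung cells held them at 3044 CPM (2932 to 3160), with a median of 16 member UMIs after thinning to 5000 UMIs, beside 8 in endothelial-like cells. They held 10 of the 13 endothelial markers too, with PECAM1 at 1152 CPM and summed endothelial markers at 1868 CPM beside 674 CPM of immune markers, so they are not free of endothelial RNA; its part was not tested. Their MCM genes together were at 463 CPM, against 302 CPM in lung endothelial-like cells. In the same cells the precursor genes TYMS, TK1 and RRM1 together were at 178 CPM, against 277 CPM. The 334 unnamed lung cells, with a median of 2867 UMIs, were at 1720 CPM (1642 to 1801).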
